A study of Mus with 6 samples.

Results

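The astrocyte marker genes are 33 genes whose transcripts are used to recognise astrocytes in brain tissue, taken by gene name from a table of 54532 genes. All 33 were found in the table, each at 1 row, and all had a mean of at least 1 FPKM (fragments per kilobase of gene, scaled to library size), the minimum for testing. They were measured by RNA-seq in the basolateral amygdala, a group of nuclei deep in the temporal lobe where sensory signals meet and fear memories are formed. The tissue came from female mice labelled CNTNAP4-KO (KO, 3 libraries) and from female wild-type mice (WT, 3 libraries). Cntnap4 encodes a neurexin-related membrane protein of interneurons. The series title concerns fear memory in this knockout and a Lactobacillus species, and the design text describes a comparison of KO with WT mice; no library carries a label for a bacterial treatment. The labels do not give the allele, strain or age, and do not say whether each library came from 1 animal, so the p-values measure the spread between these libraries, which may be technical.

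Astrocytes are the glial cells that take up glutamate and GABA released at synapses, return glutamine to neurons, clear potassium and water through processes that end on blood vessels, and supply neurons with energy substrates. Neighbouring astrocytes are joined by gap junctions. The cells carry characteristic transporters, channels, metabolic enzymes and metal-binding proteins, and when injury or disease makes them reactive their intermediate filament protein Gfap typically increases. Several of the markers are not exclusive to astrocytes: Fabp7 and Fgfr3 are also found in immature glia, S100b and Glul in oligodendrocytes, Cxcl14 in some interneurons, and Mt1 and Mt2 in blood vessel cells.

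The libraries held 15933029 to 17789798 reads, recovered from the deposited values, and 22166 to 23375 genes above 0. The reads behind a marker averaged between 108 per library for Mt2 and 51460 for Slc1a2. Cntnap4 had 1.08, 1.19 and 1.28 FPKM in KO1, KO2 and KO3, against 3.53, 3.90 and 2.15 FPKM in WT1, WT2 and WT3, which follows the labels (log2 fold change -0.92, SE 0.18, adjusted p = 0.302 by limma). WT3 stood apart: transcripts of mitochondrial DNA took 8.34% of its reads, against 4.10% to 6.31% in the other libraries, and its FPKM values summed to 301818, against 261077 to 274087 elsewhere. Values without WT3 are therefore given for the markers and gene lists whose difference shrank by over 1.5 times or changed sign without it.

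The astrocyte markers were on average somewhat lower in KO than in WT, but no marker passed the test. Of the 33 markers, 29 (87.9%) had a negative log2 fold change, against 48.7% of the 13087 genes tested, and their median was -0.22, against 0.01 over all genes tested. A log2 fold change is KO minus WT on the scale of log2(FPKM + 1), which understates the change of low genes. With limma and Benjamini-Hochberg adjustment over all 13087 genes, 0 markers passed a threshold of 0.05, where 1 gene in all passed, or 0.00764% of those tested, and the smallest adjusted p of a marker was 0.302. Limma's voom on the recovered reads also passed 0 markers. At an unadjusted p under 0.05 there were 5 markers, all with the lower mean in KO (15.2% of the 33, against 7.25% of genes tested in that direction, 7.05% in the other and 14.3% in both). For 7 markers (21.2%) all 3 KO values lay below all 3 WT values, against 10.1% of genes tested, and no marker had all KO values above all WT values (0, against 11.9%). With 3 libraries in each group an exact permutation test of a single gene cannot give a p below 0.1. In bulk tissue, fewer astrocytes and less of a transcript per astrocyte cannot be told apart.

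The size of this difference depended on WT3. Without that library the median was -0.10, 23 of the 33 (69.7%) were negative, against 49.1% of genes tested, and 0 passed. All KO values then lay below all remaining WT values for 8 markers (24.2%, against 19.1% of genes tested) and above them for 1 (against 19.3%). At an unadjusted limma p under 0.05, 4 were then lower in KO (12.1%, against 9.65%) and 1 higher (against 8.79%). Without WT1 the median was -0.29, 31 were negative, and 0 passed. WT3 was the highest of the 6 libraries for 22 of the 33 markers, against 18.2% of all genes tested. The markers summed to 2242, 2334 and 2544 FPKM in the KO libraries, against 2188, 2492 and 3030 FPKM in the WT libraries, so WT1 held the lowest sum and WT3 the highest. A sum weighs abundant markers most. The mean log2 deviation of the markers from each gene's mean was -0.20, -0.25 and 0.04 in KO1 to KO3. It was 0.07, 0.06 and 0.28 in WT1 to WT3. The median deviation was -0.15, -0.16 and 0.09 in KO1 to KO3, against -0.06, 0.02 and 0.35 in WT1 to WT3.

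**Figure D1:**
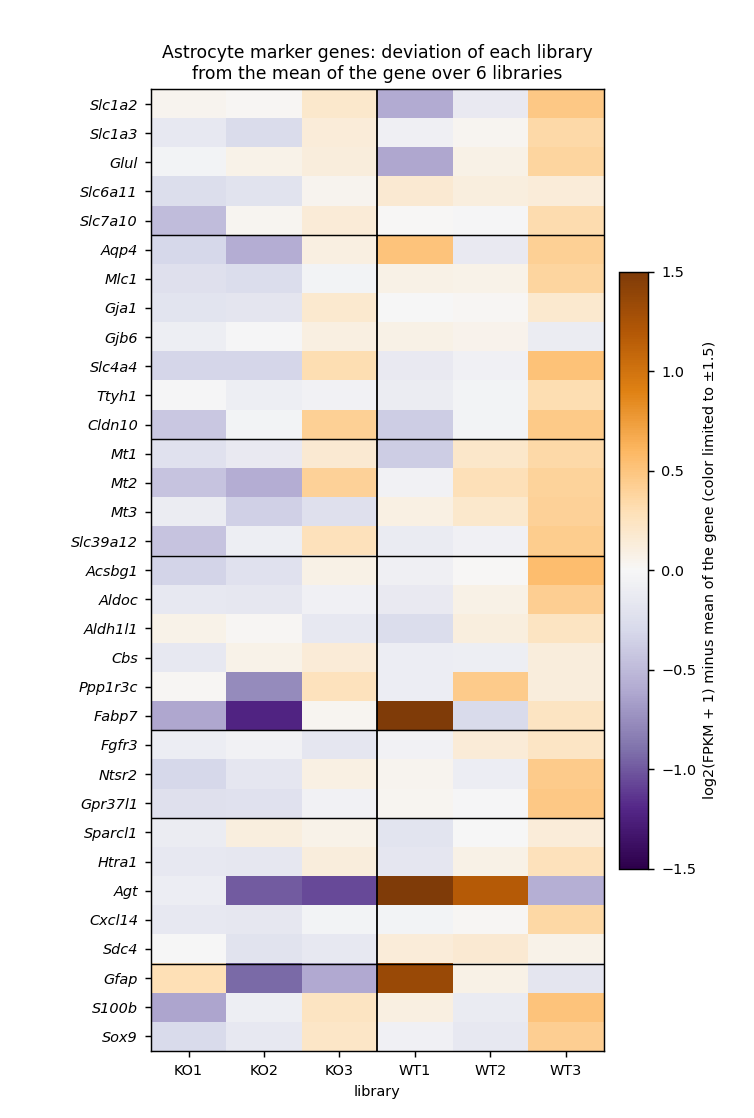
Each row is a marker and each column a library (KO1 to KO3 at the left, WT1 to WT3 at the right); color gives log2(FPKM + 1) minus the mean of that gene over the 6 libraries, and lines separate the groups by role. The WT3 column is above the mean for nearly all rows, KO3 is above KO1 and KO2 for most, and Fabp7, Agt and Gfap stand out with high values in WT1.

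In each genotype the library numbered 3 was the highest for most markers. KO3 was the highest KO library for 25 of 33 markers, against 33.5% of genes tested, and WT3 was the highest WT library for 25, against 34.2%. WT1 was the lowest WT library for 20 markers, against 37.6% of genes tested. Compared by number, 18 markers were lower in KO than in WT in all 3 pairs, against 21.7% of genes tested, and no marker was higher in KO in all 3 (0, against 23.3%). With the replicate number as a block in the limma fit, 9 markers had an unadjusted p under 0.05, against 5 without it, where the share of genes tested lower in KO at that p was 9.92%. The smallest adjusted p of a marker was then 0.221, and 0 of all genes passed. The 9 were Acsbg1, Agt, Aqp4, Fabp7, Gfap, Gpr37l1, Mlc1, Mt3 and Slc6a11. Sdc4, which was among the 5 without the block, had an unadjusted limma p of 0.0503 with it.

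The markers for uptake of transmitter and amino acids gave no common direction. Of 5, 3 had a negative log2 fold change, and the median was -0.20. Slc6a11 encodes GAT3, the GABA transporter of astrocytes, and lies on chromosome 6 from 114131241 to 114249952 (positions as the table gives them; builds GRCm38 and mm10 are named in the submitters' processing notes). It had 26.9, 27.8 and 33.1 FPKM in KO1 to KO3, against 36.3, 34.9 and 35.3 FPKM in WT1 to WT3. All KO values were below all WT values, and the WT values differed little among themselves. On the log2 scale the difference was -0.28 (SE 0.11, adjusted p = 0.331 by limma), and its KO mean was 0.825 times the WT mean.

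Slc1a2 and Slc1a3 encode the glutamate transporters GLT-1 and GLAST. Slc1a2 had 233, 229.9 and 259 FPKM in the KO libraries, against 149.6, 207 and 315 FPKM in the WT libraries. The KO libraries lay close together, inside the wide range of the WT libraries, whose highest value was 2.10 times the lowest. The log2 fold change was 0.17 (SE 0.25); it was 0.45 without WT3 (limma adjusted p = 0.238) and -0.086 without WT1. Slc1a2 was the 1 marker with all KO values above all remaining WT values when WT3 was left out, where 19.3% of genes tested had that order. It was also the 1 such marker without both libraries numbered 3, where 27.5% of genes tested had that order. Slc1a3 had 57.7, 52.8 and 70.4 FPKM in KO, against 61.1, 65.5 and 81.6 FPKM in WT, with overlap (log2 fold change -0.20, SE 0.15, or -0.079 without WT3).

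Glul, which encodes glutamine synthetase, the enzyme that turns the glutamate taken up into glutamine, had the same order of libraries as Slc1a2 in WT. It was at 391, 422 and 437 FPKM in KO, against 263, 423 and 525 FPKM in WT. Its log2 fold change of 0.10 (SE 0.24) turned to -0.18 without WT1. Slc7a10 encodes Asc-1, a transporter of small neutral amino acids, and averaged 8.11 ± 1.99 FPKM in KO and 9.40 ± 1.38 FPKM in WT (SD, n = 3 each), with overlap (log2 fold change -0.21, or -0.10 without WT3). Its gene span overlaps Lrp3 on the opposite strand, at a mean of 20.7 FPKM, and whether counting used strand is not given.

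Outside the markers, the list of other genes of the glutamate and GABA cycle held 18 tested genes, of which 10 had a negative and 8 a positive log2 fold change (median -0.04). None passed (0). At an unadjusted p under 0.05, 4 were higher and 0 lower in KO, against 7.05% and 7.25% of all genes tested. Slc38a2 and Slc38a1, glutamine transporters of neurons, were among the 4.

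All 7 channel, junction and ion transport markers had the lower mean in KO; their log2 fold changes ran from -0.53 to -0.01 around a median of -0.12. Mlc1 encodes a membrane protein of astrocyte endfeet that is mutated in megalencephalic leukoencephalopathy, and lies on chromosome 15 from 88955884 to 88979007. It had 46.7, 45.2 and 53.3 FPKM in KO, against 57.9, 57.2 and 71.6 FPKM in WT. The groups did not overlap, and the library numbered 3 was the highest of each group. Limma put the log2 fold change at -0.35 (SE 0.13, adjusted p = 0.318), and -0.25 without WT3.

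Aqp4, the water channel of the endfeet, had 14.4, 11.7 and 19.4 FPKM in KO, against 26.2, 16.3 and 24.5 FPKM in WT. KO3 lay above WT2, so the groups overlapped. Its KO mean was 0.678 times the WT mean (log2 fold change -0.53, SE 0.23, adjusted p = 0.352 by limma). The connexins that form the gap junctions between astrocytes differed little. Gja1, connexin 43, had 15.2, 15.4 and 20.04 FPKM in KO, against 17.4, 17.7 and 19.9 FPKM in WT (log2 fold change -0.12, 95% interval -0.43 to 0.18; -0.066 without WT3). Gjb6, connexin 30, had 23.9, 25.1 and 27.3 FPKM in KO, against 27.1, 26.5 and 23.5 FPKM in WT. Gjb6 was the only marker with its lowest value in WT3, and its log2 fold change was -0.01 (95% interval -0.25 to 0.23), near 0 with a sign that varied with scaling: it was 0.043 with values scaled to a common sum per library.

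Slc4a4, a sodium bicarbonate cotransporter, averaged 14.8 ± 4.24 FPKM in KO and 17.4 ± 4.82 FPKM in WT (SD, n = 3 each), a log2 fold change of -0.22, or -0.010 without WT3. Ttyh1, of the tweety family of membrane proteins, averaged 72.4 ± 1.80 FPKM in KO and 78.7 ± 12.9 FPKM in WT. Its WT spread came from WT3 at 93.5 FPKM, and its log2 fold change was 0.022 without that library. Cldn10, a claudin, had 5.29, 7.12 and 10.1 FPKM in KO, against 5.41, 7.10 and 10.5 FPKM in WT. Library by library the Cldn10 values nearly coincided between the genotypes, and libraries numbered 3 were about as far above those numbered 1 in KO as in WT; the log2 fold change was -0.025, or 0.20 without WT3. Other gap junction and endfoot genes were split, with 9 negative and 6 positive among 15 tested (median -0.08, or 0.053 with 7 negative without WT3), and 0 passed. At an unadjusted p under 0.05, 2 of the 15 were lower and 2 higher in KO, against 7.25% and 7.05% of all genes tested. The endfoot potassium channel Kcnj10 had 28.1, 29.6 and 33.4 FPKM in KO, against 19.7, 25.7 and 40.3 FPKM in WT, so that the KO values lay inside the WT range.

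Mt3, Mt2 and Mt1 encode metallothioneins, small cysteine-rich proteins that bind zinc and copper; Mt3 is the brain form. They lie in a row within 0.0277 Mb on chromosome 8, Mt3 from 94152607 to 94154146, Mt2 from 94172664 to 94173568 and Mt1 from 94179082 to 94180327, and the Mt1 span ends 18.4 Mb before the start of Cntnap4 on the same chromosome. Mt3 had the smallest p of the 33 markers. It had 45.9, 38.5 and 42.2 FPKM in KO, against 52.6, 56.9 and 65.6 FPKM in WT, with every KO library below every WT library. KO differed from WT by -0.46 on the log2 scale (SE 0.12; adjusted p = 0.302, limma), the KO mean was 0.723 times the WT mean, and it was -0.37 without WT3.

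The other metallothioneins overlapped between the genotypes. Mt1 had 76.7, 80.9 and 101 FPKM in KO, against 68.3, 103 and 114 FPKM in WT, and its log2 fold change of -0.12 (SE 0.21) turned to 0.026 without WT3. Mt2 had 7.45, 6.67 and 14.1 FPKM in KO, against 10.001, 12.9 and 14.001 FPKM in WT (log2 fold change -0.41, SE 0.26), from 68 to 139 reads a library. KO3 lay above all WT values; the log2 fold change was -0.71 without KO3 and -0.22 without KO2. Mt1 and Mt2 are close in sequence, and how reads that fit both were handled is not given. Mt4, the metallothionein of stratified epithelia, was listed at 0 in all libraries. Slc39a12, a zinc importer, had 10.4, 13.6 and 17.6 FPKM in KO, against 13.2, 13.8 and 19.95 FPKM in WT, and its log2 fold change of -0.17 was 0.0088 without WT3. Of 12 tested genes in a list of other zinc and metal handling genes, 7 had a negative and 5 a positive log2 fold change (median -0.17, or -0.10 without WT3), and 0 passed. At an unadjusted p under 0.05, 2 of the 12 were lower and 1 higher in KO, against 7.25% and 7.05% of all genes tested. Among the lower ones was Ftl1, the ferritin light chain, at 96.8, 88.3 and 94.3 FPKM in KO, against 124, 112 and 138 FPKM in WT (log2 fold change -0.42, SE 0.11, adjusted p = 0.302 by limma).

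Of the metabolic and lipid-binding markers 5 of 6 were negative (median log2 fold change -0.28), and the genotypes overlapped for all 6. Aldoc, the brain isoform of aldolase in glycolysis, had 210.4, 208 and 222 FPKM in KO, against 211, 245 and 314 FPKM in WT. The KO libraries lay within a narrow band at the level of WT1, and the log2 fold change was -0.24, or -0.089 without WT3. Acsbg1, an acyl-CoA synthetase, averaged 36.2 ± 5.58 FPKM in KO and 46.1 ± 11.9 FPKM in WT (SD, n = 3 each; log2 fold change -0.32, SE 0.19, or -0.12 without WT3). Aldh1l1 encodes a folate enzyme widely used to mark astrocytes, and differed little, at 12.9, 12.4 and 10.99 FPKM in KO, against 10.04, 13.3 and 14.6 FPKM in WT. Its log2 fold change was -0.05 (95% interval -0.40 to 0.30); it was 0.056 without WT3 and 0.0052 with a common sum per library.

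Cbs, cystathionine beta-synthase of sulphur amino acid metabolism, averaged 6.997 ± 0.798 FPKM in KO and 6.78 ± 0.667 FPKM in WT. Ppp1r3c, which targets protein phosphatase 1 to glycogen, had 20.1, 11.2 and 23.8 FPKM in KO, against 18.4, 27.4 and 21.6 FPKM in WT, with KO2 below all others (log2 fold change -0.32, or -0.021 without KO2). Fabp7, a fatty acid binding protein of radial glia and astrocytes, was set apart by WT1. It had 4.04, 2.31 and 6.89 FPKM in KO, against 26.6, 5.34 and 8.10 FPKM in WT. The highest WT library was 4.98 times the lowest, and KO3 lay above WT2. On the log2 scale the difference was -1.20 (SE 0.56, adjusted p = 0.372 by limma), and -0.58 without WT1. Of 17 tested genes of glycogen and glycolysis outside the markers, 12 were lower on average in KO (median -0.08). None passed (0) and 0 had an unadjusted p under 0.05 (14.3% of all genes tested).

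All 3 receptors had a negative log2 fold change. Gpr37l1, an orphan receptor of astrocytes, had 70.3, 70.9 and 79.8 FPKM in KO, against 84.5, 81.8 and 115 FPKM in WT, with no overlap. Limma put the log2 fold change at -0.33 (SE 0.15, adjusted p = 0.372), and -0.17 without WT3. Fgfr3, a fibroblast growth factor receptor, had 18.1, 18.6 and 17.1 FPKM in KO, against 18.7, 21.5 and 22.9 FPKM in WT. WT1 lay just above KO2, so the absence of overlap rested on a gap of under 1 FPKM (log2 fold change -0.22, SE 0.11, adjusted p = 0.384 by limma). Ntsr2, a neurotensin receptor, had 28.2, 31.2 and 37.5 FPKM in KO, against 36.1, 32.7 and 48.5 FPKM in WT, with overlap (log2 fold change -0.26, or -0.096 without WT3).

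**Figure D2:**
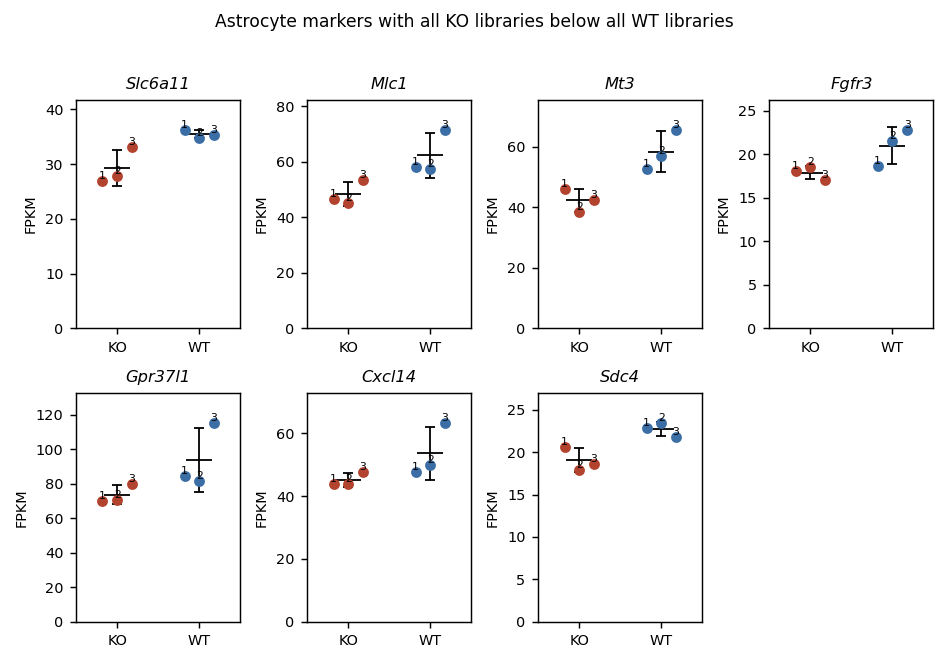
FPKM of the 7 markers for which all 3 KO libraries (left, red, numbered by replicate) lay below all 3 WT libraries (right, blue); the bar is the mean and the whisker 1 SD (n = 3 each), and axes start at 0. The KO means were 0.723 (Mt3) to 0.852 (Fgfr3) times the WT means, and the gap between the groups was narrow for Fgfr3 and Cxcl14.

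Among secreted and matrix markers, Sdc4 and Cxcl14 had no overlap between the genotypes. Sdc4, a heparan sulphate proteoglycan of the cell surface, had 20.6, 17.9 and 18.6 FPKM in KO, against 22.9, 23.4 and 21.8 FPKM in WT. KO differed from WT by -0.24 on the log2 scale (SE 0.09; adjusted p = 0.330, limma) and -0.27 without WT3, which held the lowest WT value here. Cxcl14, a chemokine, had 44.0, 43.9 and 47.6 FPKM in KO, against 47.7, 49.8 and 63.2 FPKM in WT. KO3 and WT1 differed by less than 1 FPKM, and its log2 fold change stood at -0.23 (SE 0.13; limma, adjusted p = 0.430), or -0.11 without WT3.

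Agt, which encodes angiotensinogen, the precursor of the angiotensins that astrocytes make in the brain, had the largest fitted difference of the 33 markers. It had 8.79, 4.30 and 4.04 FPKM in KO, against 29.5, 22.6 and 6.04 FPKM in WT. WT1 and WT2 were far above the KO libraries, while WT3 lay below KO1, so the groups overlapped. On the log2 scale the difference was -1.43 (SE 0.55, adjusted p = 0.328 by limma); it was -1.01 without WT1 and -2.07 without WT3 (limma adjusted p = 0.112). Agt lies on chromosome 8 from 124556534 to 124569706, 11.7 Mb beyond the end of Cntnap4.

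Sparcl1, a matrix protein that promotes synapse formation, was the most abundant marker, at 571, 665 and 647 FPKM in KO, against 538, 617 and 676 FPKM in WT, and the groups overlapped (log2 fold change 0.04, 95% interval -0.28 to 0.37). Htra1, a secreted serine protease, averaged 67.0 ± 7.88 FPKM in KO and 73.4 ± 11.1 FPKM in WT (SD, n = 3 each; log2 fold change -0.13, or -0.021 without WT3); its span overlaps that of Fgfr2 on the other strand, at a mean of 3.71 FPKM.

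Gfap, the intermediate filament protein, had 44.6, 18.5 and 23.5 FPKM in KO, against 92.8, 38.1 and 31.8 FPKM in WT. WT1 held more than any other library, and KO1, the next highest, lay above WT2 and WT3. Limma put the log2 fold change at -0.82 (SE 0.45, adjusted p = 0.429), -0.36 without WT1 and -1.12 without WT3. S100b, a calcium-binding protein, had 34.9, 51.0 and 64.2 FPKM in KO, against 58.1, 49.7 and 77.5 FPKM in WT, with overlap (log2 fold change -0.32, or -0.14 without WT3); its span overlaps that of Dip2a on the other strand, at a mean of 11.1 FPKM. Sox9, the transcription factor of the astrocyte lineage, had 5.43, 6.09 and 8.10 FPKM in KO, against 6.53, 6.10 and 9.51 FPKM in WT. KO2 and WT2 were nearly equal, and the log2 fold change was -0.15 (SE 0.19), or 0.030 without WT3.

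**Figure D3:**
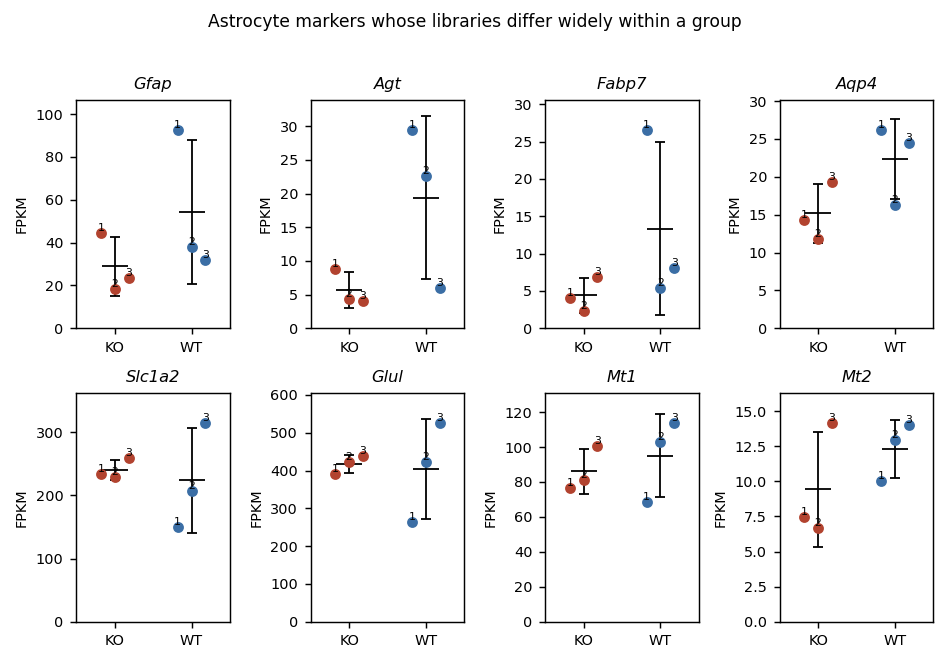
FPKM of 8 markers whose libraries differed widely within a genotype, chosen after their values were seen, with KO libraries at the left (red) and WT libraries at the right (blue), numbered by replicate; bars are means, whiskers 1 SD (n = 3 each), and axes start at 0. WT1 is the highest library for Gfap, Agt, Fabp7 and Aqp4, and the lowest for Slc1a2, Glul and Mt1.

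The WT libraries thus varied in opposite ways for different markers. WT1 was the highest of all 6 libraries for 5 of the 33 markers, against 24.9% of genes tested. These were Aqp4, Fabp7, Agt, Gfap and Slc6a11, the last with little difference among its WT values. For 16 markers that were highest in WT3, WT1 was the lowest of the WT libraries. Across the 33 markers the highest WT library was a median of 1.46 times the lowest, against 1.32 over all genes tested, and the highest KO library 1.31 times the lowest, against 1.24. The WT range exceeded 2-fold for 4 of the 33 markers, Slc1a2, Fabp7, Agt and Gfap, a share close to the 12.8% of all genes tested. Within KO the range exceeded 2-fold for 5 markers, Mt2, Ppp1r3c, Fabp7, Agt and Gfap.

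**Figure D4:**
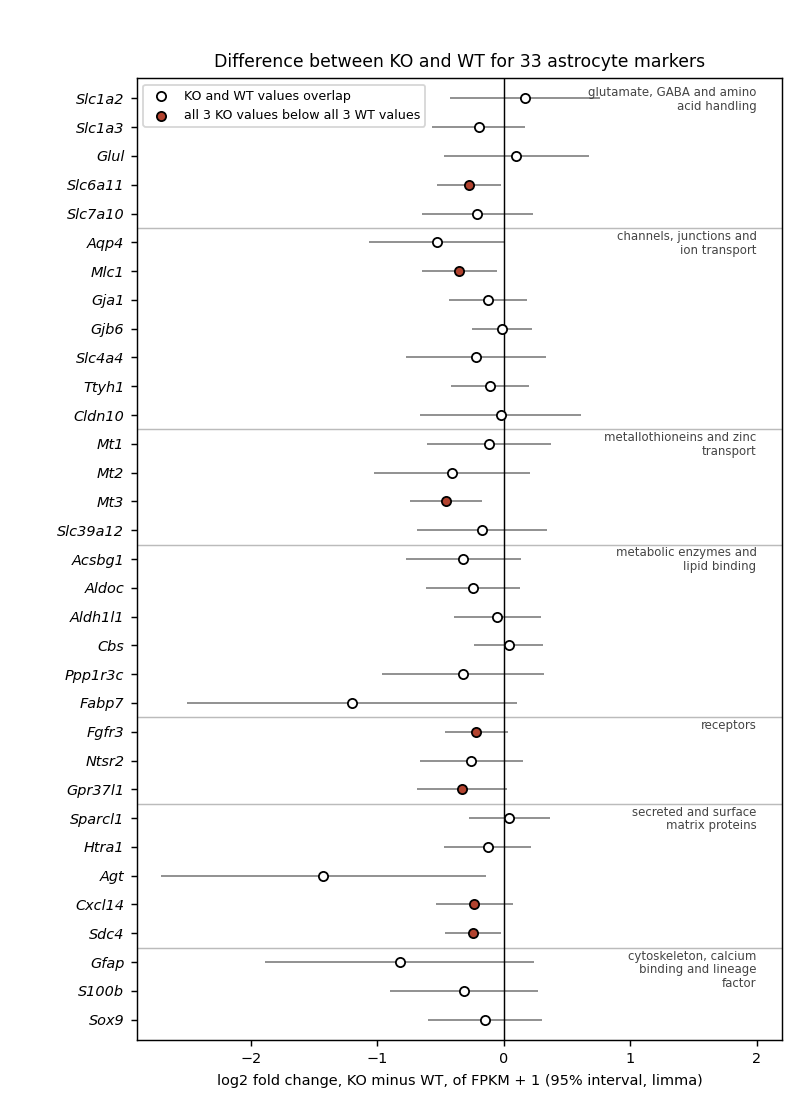
Log2 fold change of each of the 33 markers, KO minus WT on the log2(FPKM + 1) scale, with its 95% interval from the limma fit, grouped by role from top to bottom; filled points are the 7 markers whose groups did not overlap. Points lie left of 0 for 29 markers; the intervals of Mt3, Mlc1, Slc6a11, Sdc4 and Agt end below 0 before adjustment, and those of Fabp7, Agt and Gfap are the widest.

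A list of 42 other astrocyte genes, which shares no gene with the 33, had a similar median. All 42 were tested: 33 had the lower and 9 the higher mean in KO. The median was -0.23, or -0.13 with 27 negative without WT3. None passed (0), 13 had an unadjusted p under 0.05 with a lower KO mean (7.25% of all genes tested) and 2 with a higher one (7.05%), and in 11 every KO library lay below every WT library (10.1%). Mfge8, a secreted protein that promotes phagocytosis, had 32.0, 33.05 and 34.6 FPKM in KO, against 42.1, 43.3 and 50.1 FPKM in WT (log2 fold change -0.43, SE 0.10, adjusted p = 0.302 by limma). Slc27a1, a fatty acid transporter, had 12.2, 12.6 and 12.7 FPKM in KO, against 17.8, 14.8 and 17.7 FPKM in WT, and Dbi, the acyl-CoA binding protein, had 23.9, 22.5 and 25.9 FPKM in KO, against 38.8, 29.3 and 32.8 FPKM in WT. Dclk1 and Nfia were the pair with the higher KO mean at an unadjusted p under 0.05.

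Genes of reactive astrocytes, a list of 30 of which 15 were tested, had a median of -0.29 (-0.17 without WT1), with 12 negative and 3 positive, and 0 passed. In sum they were at 77.4, 69.7 and 71.6 FPKM in KO, against 108, 90.4 and 87.0 FPKM in WT. S100a10 was the 1 member at an unadjusted p under 0.05, with the lower mean in KO (7.25% of all genes tested). It had 12.5, 14.2 and 13.4 FPKM in KO, against 23.1, 18.5 and 18.1 FPKM in WT (log2 fold change -0.53, SE 0.12, adjusted p = 0.302 by limma). Vim, the filament protein vimentin, had 10.6, 8.27 and 10.6 FPKM in KO, against 20.02, 9.42 and 12.6 FPKM in WT, highest in WT1 as Gfap was.

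Several lists of markers of other cells also had a negative median, though not all with the same order of libraries. Their part in the result was not tested. No marker of the cell types named here was at 0 in all libraries. All 18 tested microglia markers had negative values (median -0.31) and summed to 182 to 242 FPKM in KO, against 252 to 350.1 FPKM in WT, highest in WT3. Without WT3 the microglia median was -0.17 and 13 of 18 were negative. All 14 oligodendrocyte precursor markers were negative too (median -0.38; sums of 125 to 138 FPKM in KO, against 152 to 198 FPKM in WT), as were all 10 tested pericyte and smooth muscle markers (median -0.34; 73.8 to 97.4 FPKM in KO, against 81.9 to 152 FPKM in WT). Without WT3 the precursor markers were still all negative (14, median -0.43), while 6 of 10 pericyte and smooth muscle markers were (median -0.19). All 11 tested meningeal markers were negative (median -0.61; 37.8 to 60.7 FPKM in KO, against 52.3 to 123 FPKM in WT), with the highest sum in WT1; without WT1 the median was -0.21 and 9 were negative.

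Mature oligodendrocyte markers had the other sign, with 14 of 16 positive and a median of 0.42. They summed to 676 to 925 FPKM in KO, against 353 to 908 FPKM in WT; WT1 held the lowest sum; the median was 0.047 without WT1, with 8 positive, and 0.73 without WT3. Endothelial markers were negative for 10 of 14 (median -0.09; 127 to 164 FPKM in KO, against 138 to 213 FPKM in WT), but without WT3 the median turned to 0.097 and 5 of 14 were negative. Of 12 ependymal and choroid plexus markers only 4 were tested, with 3 negative (median -0.44) and sums of 8.26 to 27.7 FPKM in KO, against 21.1 to 56.3 FPKM in WT, highest in WT1. Neuron markers had no common direction, with 8 negative and 10 positive of 18 (median 0.05) and sums of 3161 to 3666 FPKM in KO, against 2910.2 to 3516 FPKM in WT. Of these 18, 3 had all KO values above all WT values and 2 all below. The shares over all genes tested were 11.9% and 10.1%, not far from these counts. No gene of these lists of other cells passed the limma test over all genes (0). At an unadjusted p under 0.05, 7.25% of all genes tested had the lower mean in KO and 7.05% the higher. With the lower mean in KO there were 9 of 14 precursor, 8 of 18 microglia and 4 of 11 meningeal markers at that p. There were also 3 of 10 pericyte and smooth muscle, 2 of 4 ependymal and choroid plexus and 1 of 18 neuron markers. With the higher mean in KO there were 2 of 18 neuron markers and 1 of 16 mature oligodendrocyte markers.

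**Figure D5:**
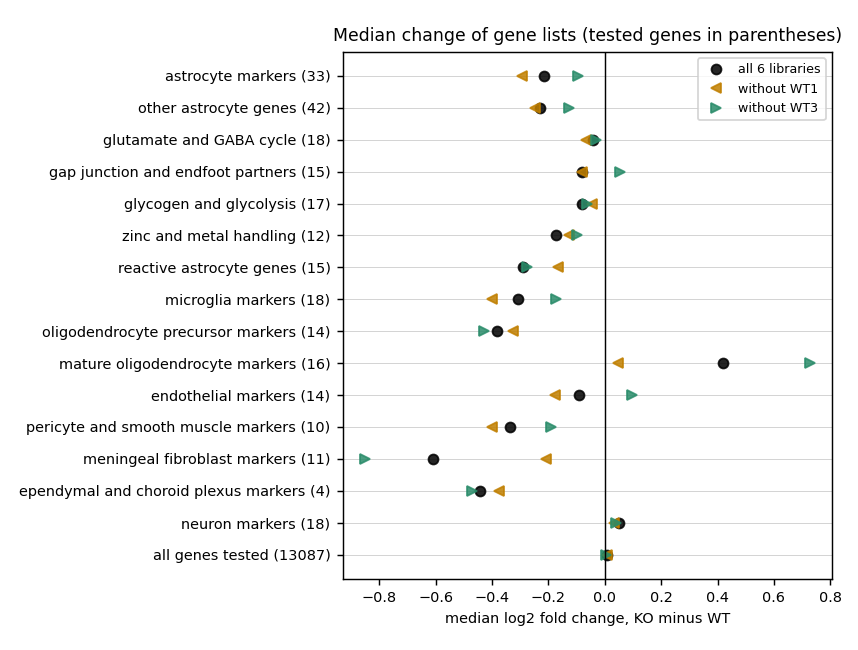
Median log2 fold change, KO minus WT, of the astrocyte markers, of 14 further gene lists (tested genes in parentheses) and of all genes tested, with all 6 libraries (circles), without WT1 (triangles pointing left) and without WT3 (triangles pointing right). The astrocyte markers lie at -0.22, -0.29 and -0.10 in these 3 settings, and all genes tested stay near 0.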

How the data were processed

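The authors deposited FPKM per gene for 6 RNA-seq libraries, and the file headers add gene name, position, length and biotype. Per the labels' protocols, RNA came from a Qiagen RNeasy kit and went into a SMARTER mRNA-Seq preparation. Submitters' processing notes name the builds GRCm38 and mm10; no source used here names the aligner, counter, annotation version or strand setting. FPKM times gene length was a whole number of steps of 1 size in each library for 100% of values above 0 (tolerance 0.01 reads). This gave the reads quoted, which entered only the voom alternative.

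KO was compared with WT on log2(FPKM + 1) over the 13087 genes averaging at least 1 FPKM, by limma 3.58.1 in R 4.3.3: a variance trend in the empirical Bayes step, two-sided tests, Benjamini-Hochberg adjustment across every gene tested and a threshold of 0.05. Intervals are 95% intervals from that fit. The fit was also run on data simulated with independent noise in each gene. That run cannot show how the intervals hold where many genes shift together in a library. The 33 markers and 14 further gene lists were chosen with earlier results of these data known, so lists are described by counts and medians beside all genes tested, without a list test. The text names all 33 markers, giving each library's values for those without overlap, those at an unadjusted p under 0.05, defining markers, metallothioneins and further ones where they help. From the further lists it names genes among the 3 of smallest p; Kcnj10, Vim, Dclk1, Nfia, Slc38a1, Mt4 and the overlapping genes Lrp3, Fgfr2 and Dip2a were chosen after their values were seen.

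Replicate numbers are from the titles. Deviations from the group mean correlated across genes by 0.17, 0.15 and 0.33 for KO and WT libraries numbered 1, 2 and 3, all over 0.1, so a replicate block was also fitted; KO1 correlated more with WT2 (0.28) than with WT1. The closing section gives the alternatives tried.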

Additional observations from a re-analysis of the deposited data

How the results depend on the processing

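In all 18 alternatives 0 of the 33 markers passed the threshold, the lowest adjusted p of a marker being 0.0921 (limma with sample weights). The median of the markers stayed negative, from -0.31 (without KO3) to -0.10 (without WT3), against -0.22 in the reported fit. Between 23 (without WT3) and 31 (without WT1) markers were negative; a common sum per library gave 26, where the median over all genes was 0.06. The number of genes passing, 1 in the reported fit, was 0 with no filter on low values, with quantile normalization, with no variance trend, with the replicate block, with the length trend removed and without both libraries numbered 3. Leaving out 1 library gave 0 to 9, the 9 without WT3. The cause was not tested. Markers with all KO values below all WT values numbered 7, and 4 with a common sum per library (6.07% of genes tested), 4 with quantile normalization (9.85%), 6 with the length trend removed (9.15%), and 19 without both libraries numbered 3, where 25.6% of genes tested had no overlap in that direction; leaving out 1 library gave 7 to 17, the 17 without KO3 (16.3% of genes tested). Both higher counts come with fewer libraries to compare. Markers at an unadjusted p under 0.05 numbered 5, all lower in KO, and 3 with a common sum (4.43% of genes tested lower in KO at that p), 3 with quantile normalization (6.95%), 8 with voom on recovered reads (7.63%), 9 with sample weights (11.7%), 9 with the replicate block (9.92%) and 1 without KO2 (3.81%). The block raised this share over all genes too; Sdc4 was lost at that p under the block, and no adjusted call on a marker changed. In the other direction Slc1a2 alone was at that p, without WT3.

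Of 594 values of single markers under the alternatives, 24 had the opposite sign, in 11 markers, none of them called. With a common sum per library the log2 fold change was 0.043 for Gjb6, 0.028 for Cldn10 and 0.0052 for Aldh1l1. With the length trend removed it was 0.052 for Gjb6, 0.044 for Cldn10 and 0.014 for Mt1. Without both libraries numbered 3 it was 0.021 for Ttyh1 and 0.12 for Aldh1l1. Leaving out 1 library gave -0.086 to 0.45 for Slc1a2, -0.18 to 0.32 for Glul, -0.074 to 0.029 for Gjb6, -0.19 to 0.022 for Ttyh1, -0.24 to 0.20 for Cldn10, -0.34 to 0.026 for Mt1, -0.35 to 0.0088 for Slc39a12, -0.20 to 0.056 for Aldh1l1, -0.023 to 0.12 for Cbs, -0.043 to 0.12 for Sparcl1 and -0.29 to 0.030 for Sox9. The other 22 markers kept their sign throughout. Depth limits Mt2 and Fabp7 most, with as few as 68 and 50 reads in a library.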
